A study of Mus musculus with 8 samples.

Results

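Satellite cells from muscle 2.5 days after injury were compared with satellite cells fixed inside the animal, gene by gene. A gene was a member of the comparison when at least 2 of the 4 libraries of both groups held it at 1 FPKM or more (fragments per kilobase of transcript, scaled to the mapped fragments of a library, the unit the deposited values were read as). This rule kept 11841 of 24328 gene symbols. Just inside it were Fzd9 and LOC100503496, whose second highest value among the 4 libraries was 1.0004 and 1.0014 FPKM, and just outside it Chst8 and Fgd6, at 0.99873 and 0.99903. The PFA-perfused group was 2 libraries from mice of genotype label Pax7-nGFP, a reporter that marks nuclei of Pax7-expressing cells, perfused with paraformaldehyde (PFA) before the muscle was taken. The injury-activated group was 2 libraries from wild type mice without perfusion, and the labels do not name the agent of injury. An unperfused group of 2 libraries from wild type mice with no perfusion and no stated injury is set beside them where its values help to place a gene, and 2 PBS-perfused libraries, also Pax7-nGFP, enter the filter on tested genes, the scalings and the shared estimate of spread. All mice had a C57BL/6 background and were 2 months old, and the sort kept Vcam-positive cells that lacked CD31, CD45 and Sca-1. Perfusion, fixation, genotype label and RNA kit differ between both groups along with injury, so their parts in a difference cannot be told apart. The study's text lists 2 sequencers, and a difference between sequencers was not tested because the one used for each library is not clear.

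Satellite cells are the stem cells of skeletal muscle. In resting muscle they lie under the basement membrane in quiescence, a reversible exit from the cell cycle that Notch signalling, calcitonin receptor signalling and cell cycle inhibitors help to hold. After injury they leave quiescence, grow, replicate their DNA and divide as myoblasts, and part of their progeny turns on Myog, stops dividing and fuses into new fibres while another part returns to quiescence.

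Total FPKM ran from 547663 to 582336 over the 4 libraries, and since no read counts were used the depth behind each value is unknown. Rn45s, from which ribosomal RNA is cut, and the nuclear RNA Malat1 held more of the total in the PFA-perfused libraries, at 9.80 to 19.4% and 6.86 to 7.43%, than in the injury-activated, at 0.356 to 0.363% and 0.0665 to 0.0796%. Of all symbols, 11434 and 11483 reached 1 FPKM in the PFA-perfused and 9757 and 9656 in the injury-activated libraries. Over the members, the median difference between libraries of a group was 0.225 (log2) for PFA-perfused and 0.083 for injury-activated. Whether replicate libraries stem from different animals is not stated in the labels. A p-value here measures the spread between such libraries only, and that spread may be technical. The PFA-perfused libraries differed from each other in several muscle and tendon genes: PFA-perfused 2 was the higher in Tnnt2, Ttn and Actc1, and PFA-perfused 1 in Thbs4, Fmod and haemoglobin genes, whose values are given below. Genes behind the sort were read as a check. Vcam1, the positive marker, was high in every library (128 and 84.3 FPKM in PFA-perfused, 241 and 234 in injury-activated). Pecam1, which encodes CD31, was low, at 3.13 and 1.25 FPKM against 1.14 and 1.06, Ptprc, which encodes CD45, did not reach 1 FPKM in 2 libraries, and Ly6a, which encodes Sca-1, stood at 3.46 and 2.82 in PFA-perfused and 8.40 and 7.58 in injury-activated libraries.

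Most expressed genes differed between both groups. Of 12515 genes tested, 73.5% were called by limma at an adjusted p under 0.05 (26.1% higher and 47.3% lower in injury-activated cells). Among the 11841 members, 3240 rose and 5733 fell in injury-activated cells relative to PFA-perfused cells, and 2868 were not called. Of the members, 2045 had passed through the PFA-perfused libraries alone and 516 through the injury-activated libraries alone. Such genes had to differ, so nothing is read from the 2020 falls and 499 rises among them. Where such a gene is named, its levels and difference are a description and carry no p-value. Of the 8790 members that reached 1 FPKM in both libraries of both groups, 2592 rose, 3492 fell and 2706 were not called. The other 490 members, such as Tnc, reached 1 FPKM in only 1 library of at least 1 group. Of these, 149 rose, 221 fell and 120 were not called. The filter bears in part on them too, so p-values printed for such genes are to be read with that limit. Differences of FPKM + 1 on the log2 scale, given ± SE throughout (limma, n = 2 libraries a group), exceeded 3 in size for 386 rises and 831 falls, and 6 for 15 rises and 39 falls. The libraries of both groups did not overlap for 10932 members, 92.3%, against 91.3% of all genes tested.

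The median difference of all tested genes was -0.48, and counts of rises and falls depend on how libraries are scaled to each other. Libraries scaled by a trimmed mean of ratios moved this median to 0.11 and gave 39.7% of tested genes higher and 33.1% lower. Quantile normalization gave 35% and 34.2%. Gene groups are therefore described by counts on the values as deposited, followed by those after trimmed mean scaling, and each list median is to be read against -0.48. The counts as deposited are likewise to be read against 26.1% higher and 47.3% lower, and those after trimmed mean scaling against 39.7% and 33.1%. Where a list held members that had not passed in both groups, the last pair of counts is of rises and falls in a part of it. That part is its members at 1 FPKM or more in all 4 libraries, since the filter bears on the others. Such pairs are to be read against the 2592 rises and 3492 falls among all 8790 members of that kind.

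**Figure D1:**
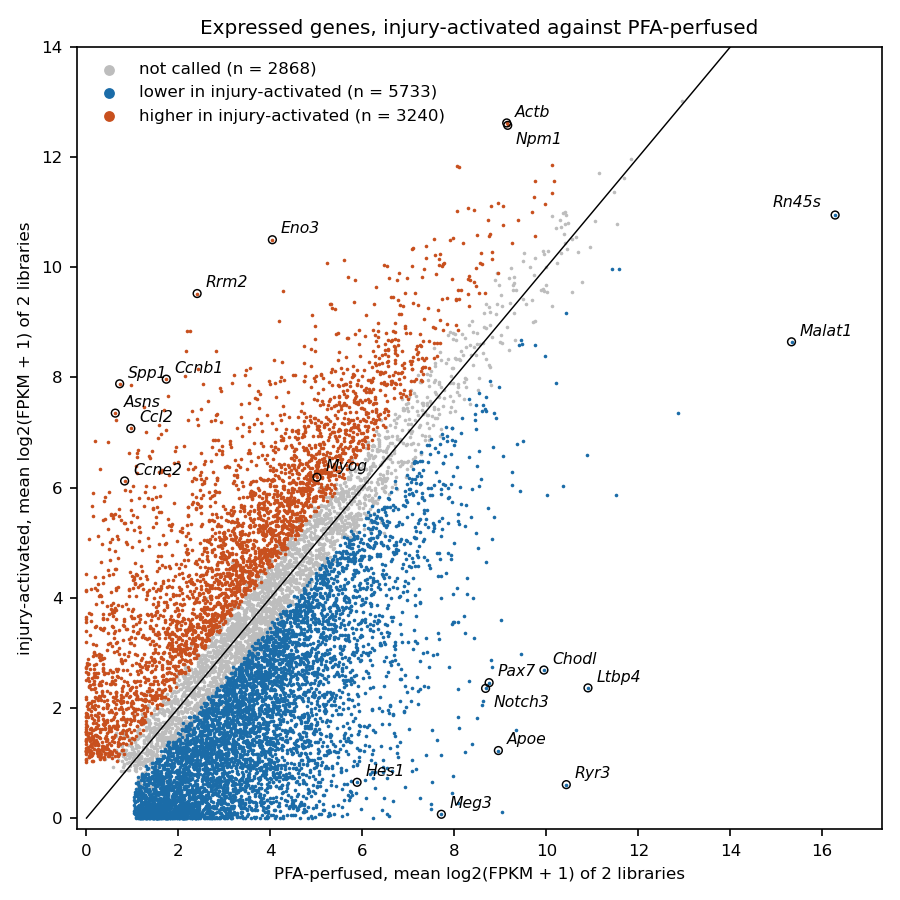
Each point is 1 of the 11841 members, placed by its mean log2(FPKM + 1) in the 2 PFA-perfused libraries (horizontal) and the 2 injury-activated libraries (vertical), with the line of equal levels. The 3240 genes called higher (orange) lie above the 2868 not called (grey), the 5733 called lower (blue) lie below, and named genes such as Ccnb1, Spp1, Ryr3 and Pax7 lie far from the line.

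Genes of cell division rose almost throughout. Of 50 genes for DNA replication and nucleotide supply, 46 rose and none fell (median 2.61; after trimmed mean scaling 49 and 0; 40 and 0 of the 44 in all 4 libraries). Of 63 mitotic genes, 61 rose and 1 fell (median 3.79; 61 and 0; 40 and 1 of the 42 in all 4 libraries). In all, 3 of the first and 11 of the second list had passed through the injury-activated libraries alone. The summed level of the mitotic list was 271 and 284 FPKM in PFA-perfused and 3958 and 4121 FPKM in injury-activated libraries. In bulk RNA, fewer cells of a type and less RNA per cell cannot be told apart, here and for every gene group that follows.

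Rrm2, the regulated subunit of the ribonucleotide reductase that makes deoxyribonucleotides, stood at 3.52 and 5.21 FPKM in PFA-perfused and 732 and 738 in injury-activated cells (7.12 ± 0.65, limma adjusted p = 1.1e-05). Its partner subunit Rrm1 stood at 5.96 and 7.37 FPKM against 216 and 216 (4.83 ± 0.26). The helicase subunits that open DNA at origins rose together: Mcm2 was at 2.43 and 2.23 against 29.6 and 32.1 FPKM, Mcm3 at 5.69 and 3.75 against 166 and 175, and Mcm5 at 5.83 and 7.27 against 212 and 233. In each of these genes both injury-activated libraries lay more than 10-fold above both PFA-perfused libraries. Cdc6, which loads the helicase, was under 1 FPKM in both PFA-perfused libraries (0.565 and 0.691) and at 47.9 and 48.3 in injury-activated libraries. The list member with the highest level among those not called was Pold2, a DNA polymerase delta subunit (82.1 and 57.3 against 96.96 and 99.98 FPKM; 0.51 ± 0.26, limma adjusted p = 0.1), and it was called after trimmed mean scaling, at 1.3.

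Ccnb1, the cyclin that drives entry into mitosis, rose from 2.13 and 2.54 FPKM to 245 and 254 (6.23 ± 0.26, limma adjusted p = 3.1e-07). Its kinase Cdk1 rose from 2.11 and 3.83 to 103 and 108 FPKM (4.78 ± 0.27). Bub1b, a spindle checkpoint kinase, went from 1.24 and 1.52 to 168 and 184 FPKM, and Top2a, which untangles chromosomes, from 2.998 and 3.91 to 250.4 and 272. The groups did not overlap for any of these genes. Mki67, the usual proliferation marker, stood lower on the FPKM scale than these but also rose, from 2.68 and 3.89 to 35.1 and 40.0 FPKM (3.18 ± 0.36, limma adjusted p = 3.9e-05). Cdc20, an activator of the anaphase-promoting complex, was already at 5.70 and 9.79 FPKM in PFA-perfused cells and rose to 26.5 and 25.0 (1.65 ± 0.29). The single fall was Pttg1, securin, the inhibitor of separase (36.8 and 33.8 against 16.1 and 15.8 FPKM; -1.10 ± 0.22, limma adjusted p = 0.0016), which was not called after trimmed mean scaling (-0.33). Ube2s, a ubiquitin-conjugating enzyme of anaphase, was not called (6.15 and 5.76 against 5.71 and 5.71 FPKM).

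The promoters of both lists differ in their letters, and a few are shown because the genes behind them rose together. Windows from 250 bases before to 50 bases after the start of transcription were taken from RefSeq (mouse build GRCm38.p6), which held 55 of the 63 mitotic genes in 60 windows and 41 of the 50 replication genes in 47 windows. 3 motifs were searched on both strands: TTTGAA, the core of the cell cycle homology region (CHR) of genes expressed late in the cycle, CCAAT, and the E2F motifs TTTCCCGC or TTTGGCGC, and matches were allowed to overlap. TTTGAA was in 66.7% of mitotic windows, 10.6% of replication windows, 11.8% of the windows of all members and 17.9% of the 32851 windows in the table. Within 50 bases of the start, the shares were 58.3%, 4.26%, 3.05% and 4.94%. CCAAT was in 75% of mitotic windows, 57.4% of replication windows, 37.7% of the members' windows and 37.4% of all. An E2F motif was in 6.67% of mitotic windows, 25.5% of replication windows, 3.01% of the members' windows and 1.56% of all. A match describes letters in the window and shows no binding.
The 140 bases before the start are printed 5′ to 3′ along the gene's strand, with matched motifs in capitals, for 3 mitotic genes that hold both TTTGAA and CCAAT (Cdk1 at chr10:69352913-69353052, minus strand; Top2a at chr11:99024190-99024329, minus strand; Cdc20 at chr4:118437344-118437483, minus strand) and for 2 replication genes (Mcm6 at chr1:128359706-128359845, minus strand; Rrm2 at chr12:24708114-24708253, plus strand).
Cdk1: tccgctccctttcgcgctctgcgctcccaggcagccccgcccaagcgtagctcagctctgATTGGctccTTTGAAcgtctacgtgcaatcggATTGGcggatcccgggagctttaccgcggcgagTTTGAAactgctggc
Top2a: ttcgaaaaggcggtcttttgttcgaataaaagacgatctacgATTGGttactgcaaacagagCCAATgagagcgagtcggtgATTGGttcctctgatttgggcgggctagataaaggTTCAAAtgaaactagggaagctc
Cdc20: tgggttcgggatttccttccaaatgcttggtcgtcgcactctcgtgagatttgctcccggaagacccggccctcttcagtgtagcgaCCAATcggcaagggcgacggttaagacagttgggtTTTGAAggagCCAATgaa
Mcm6: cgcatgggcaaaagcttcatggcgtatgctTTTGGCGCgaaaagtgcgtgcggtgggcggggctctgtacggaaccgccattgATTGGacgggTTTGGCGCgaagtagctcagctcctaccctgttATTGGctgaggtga
Rrm2: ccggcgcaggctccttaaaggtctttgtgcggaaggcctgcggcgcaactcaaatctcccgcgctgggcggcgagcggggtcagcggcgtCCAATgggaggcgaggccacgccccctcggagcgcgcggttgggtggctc
In the 140 bases printed, Cdk1, Top2a and Cdc20 hold TTTGAA or its reverse complement close to the start together with CCAAT on either strand. In the same stretch, Mcm6 holds the motif TTTGGCGC 2 times and Rrm2 holds CCAAT alone of the motifs searched. Mcm6, a helicase subunit, rose from 7.21 and 8.12 to 111 and 108 FPKM.

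Among 32 drivers of the cycle, 19 rose and 4 fell (median 1.37; after trimmed mean scaling 25 and 4; 10 and 3 of the 21 in all 4 libraries). Ccne2, a cyclin of entry into S phase, rose from 0.629 and 0.939 FPKM to 71.7 and 65.6 (5.29 ± 0.18), and Ccne1 from 0.889 and 1.68 to 13.0 and 10.9. Ccna2, the S and G2 phase cyclin, rose from 3.22 and 5.04 to 17.2 and 15.8 FPKM (1.79 ± 0.22, limma adjusted p = 7.7e-05). The D cyclins, which carry growth signals to the cycle, did not share these rises. Ccnd3 fell from 306 and 208 to 11.2 and 10.4 FPKM (-4.43 ± 0.24, limma adjusted p = 7.2e-07). Ccnd1 stood at 58.5 and 30.2 against 38.2 and 37.8 FPKM and was not called (-0.15 ± 0.33). Ccnd2 was under 1 FPKM in all 4 libraries and so is not among the 32 drivers. It stood at 0.406 and 0.295 against 0.848 and 0.844 FPKM (0.45 ± 0.20) and was called only after trimmed mean scaling (0.66) of these 2 scalings. The atypical repressors E2f7 and E2f8 rose most among the E2F factors, E2f8 from 0.828 and 0.759 to 55.8 and 66.8 FPKM and E2f7 from 0.0957 and 0.354 to 15.5 and 15.5. E2f2 rose by 1.82 and Foxm1, the activator of mitotic genes, by 2.26, from 1.02 and 1.26 to 8.99 and 9.50 FPKM. Cdk4, the partner of D cyclins, was at 217 and 166 against 469.8 and 480.2 FPKM (1.31 ± 0.29), while Cdk2 was not called (36.9 and 29.0 against 26.4 and 27.7). Myc was not called at 9.33 and 8.04 against 11.9 and 9.61 FPKM (0.27 ± 0.20, limma adjusted p = 0.25), although it was after trimmed mean scaling (0.98), and Mycn fell (-1.84 ± 0.26).

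Brakes of the cycle and p53 targets moved in both directions. Of 27, 7 rose and 16 fell (median -0.82; after trimmed mean scaling 10 and 8; 7 and 14 of the 25 in all 4 libraries). The shares of 25.9% and 59.3% stand beside 26.1% and 47.3% of all tested genes, and quantile normalization gave 9 rises and 10 falls. Gas1, a growth arrest membrane protein, fell from 594 and 329 FPKM to 5.93 and 6.68 (-5.93 ± 0.53, limma adjusted p = 9.6e-06). Cdkn1c, the p57 inhibitor, fell from 67.5 and 147 to 12.1 and 9.87 FPKM (-3.08 ± 0.58), Cdkn2c, the p18 inhibitor, from 35.6 and 27.2 to 2.22 and 2.51 (-3.26 ± 0.23), and Rbl2, the p130 pocket protein of quiescent cells, from 14.8 and 14.8 to 3.03 and 2.84 (-2.01 ± 0.22). Cdkn1a, the p21 inhibitor and a p53 target, went the other way, from 21.2 and 36.6 to 162 and 153 FPKM (2.45 ± 0.35, limma adjusted p = 1.8e-04), and was higher still in unperfused cells (268 and 328). Trp53 itself rose from 60.2 and 42.0 to 149 and 152 FPKM (1.56 ± 0.33), Mdm2, which degrades its protein, from 2.08 and 2.07 to 7.20 and 5.84 (1.28 ± 0.19), and Rbl1, the pocket protein of cycling cells, from 1.37 and 1.05 to 6.27 and 5.66 (1.66 ± 0.19). Cdkn1b, the p27 inhibitor, fell from 7.61 and 9.66 to 3.26 and 3.97 FPKM (-1.06 ± 0.36, limma adjusted p = 0.025). Its call did not hold without PFA-perfused 2 (-0.90), without injury-activated 1 (-0.95) or 2 (-1.17), or after trimmed mean scaling (-0.37).

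**Figure D2:**
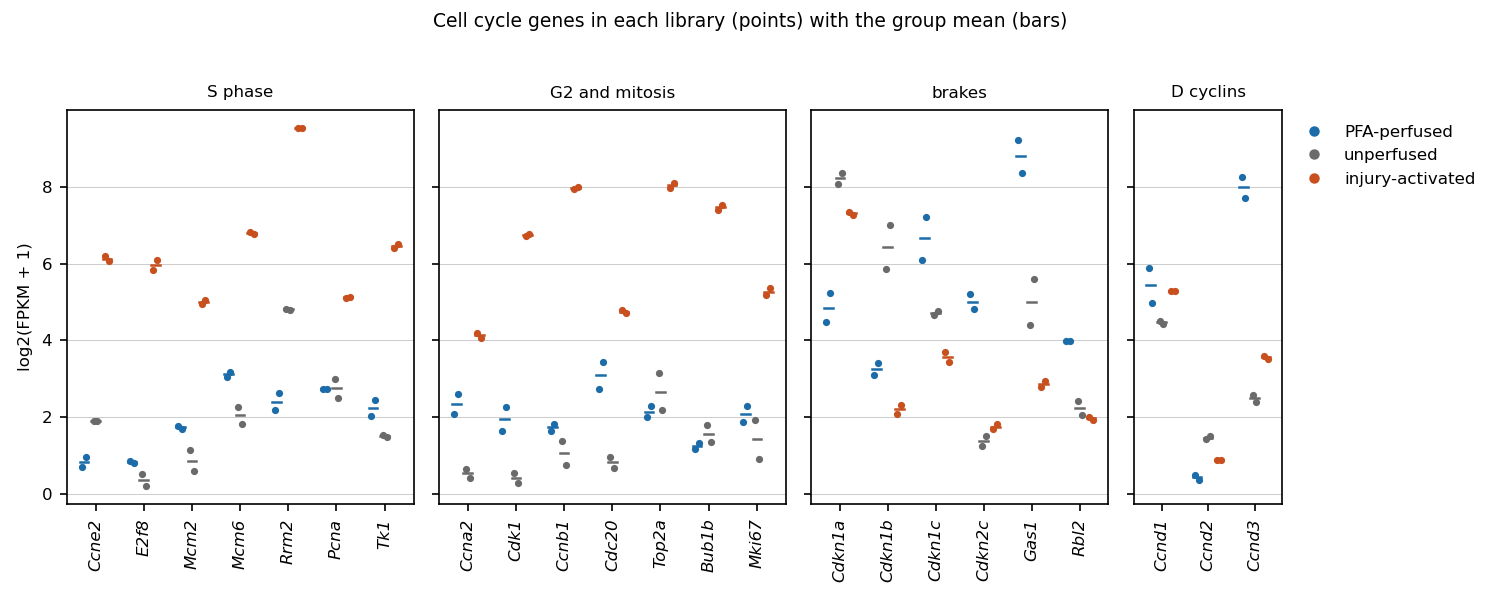
Level of cell cycle genes as log2(FPKM + 1) in each library (points) with the mean of 2 libraries (bars), for PFA-perfused, unperfused and injury-activated cells. Every S phase and mitotic gene drawn lies highest in the injury-activated libraries, while Gas1, Cdkn1c, Cdkn2c, Rbl2 and Ccnd3 lie highest in the PFA-perfused and Cdkn1a and Cdkn1b in the unperfused libraries.

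Chromatin genes moved in both directions. Of 39 members of the list, 18 rose and 13 fell (median 0.53; after trimmed mean scaling 22 and 8; 15 and 10 of the 33 in all 4 libraries). Genes that maintain DNA methylation rose: Uhrf1, which reads hemimethylated DNA, was at 0.818 and 1.00 against 95.9 and 99.2 FPKM (5.69 ± 0.20, limma adjusted p = 2.7e-07), and Dnmt1, the enzyme it recruits, at 2.86 and 4.47 against 75.2 and 85.0 (4.14 ± 0.23). Hmga2, an architectural protein of fetal and proliferating cells, was listed at 0 and 0.202 FPKM in PFA-perfused and at 45.4 and 42.7 in injury-activated cells, and Asf1b, a histone chaperone, went from 5.19 and 5.29 to 184 and 194. The Polycomb enzymes parted: Ezh2 rose from 9.32 and 11.98 to 24.3 and 26.4 FPKM (1.18 ± 0.24) and Ezh1 fell from 34.4 and 31.8 to 16.0 and 14.5 (-1.07 ± 0.20; not called after trimmed mean scaling, -0.31). Cbx7, a Polycomb reader, fell from 26.9 and 28.6 to 0.768 and 0.592 FPKM (-4.10 ± 0.20). The DNA-binding protein Dek was not called (508 and 512 against 380.0 and 418 FPKM; -0.36 ± 0.34) except after quantile normalization (-0.93).

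Replication-dependent histone genes, whose transcripts normally end without a poly(A) tail, gave counts that depended on the scaling and on the filter. Of 22 members, 4 rose and 13 fell (median -0.86; after trimmed mean scaling 7 and 9; 2 and 6 of the 12 in all 4 libraries), and quantile normalization gave 7 and 7. As deposited, 18.2% rose and 59.1% fell, beside 26.1% and 47.3% of all tested genes, and 6 members had passed through the PFA-perfused libraries alone. Their summed level was 159 and 202 FPKM in PFA-perfused and 151 and 215 FPKM in injury-activated libraries, and the groups overlapped. Only 8 fell without either PFA-perfused library, and 1 rose without injury-activated 2. The linker histone Hist1h1b rose from 1.82 and 2.14 to 35.4 and 60.7 FPKM (3.99 ± 0.26, limma adjusted p = 1.9e-06), while Hist2h2aa1 fell from 27.0 and 27.5 to 1.01 and 1.08 (-3.79 ± 0.20). Members of this family share near-identical sequences, so the split of reads among them is uncertain.

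Myogenic regulators fell more often than they rose relative to PFA-perfused cells, as did all tested genes. Against unperfused cells, 5 of the members were higher and 8 lower (median -0.05), beside 40.8% and 29.3% of all tested genes. Of 19 myogenic regulators, 4 rose and 13 fell (median -1.53; after trimmed mean scaling 5 and 11; 3 and 7 of the 12 in all 4 libraries), and the rises numbered 1 without injury-activated 1 or 2 and 2 without PFA-perfused 1. Pax7, the factor by which satellite cells are recognised, stood at 328 and 567 FPKM in PFA-perfused and at 4.59 and 4.40 in injury-activated libraries, a ratio of means of 99.5 (-6.30 ± 0.31, limma adjusted p = 5.2e-07). Its relative Pax3 fell from 17.8 and 12.4 to 0.832 and 0.480 FPKM (-3.27 ± 0.27). Both Pax genes were between the other groups in unperfused cells, Pax7 at 19.8 and 20.4 and Pax3 at 2.27 and 4.14 FPKM. Of these groups only the PFA-perfused carried the Pax7-nGFP label, and the part of that label in the Pax7 level was not tested.

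The determination factors fell less. Myod1 stood at 150.1 and 150.4 FPKM in PFA-perfused and 42.8 and 40.7 in injury-activated cells (-1.82 ± 0.26, limma adjusted p = 1.8e-04; -1.03 after trimmed mean scaling). Myf5 stood at 311 and 229 against 82.8 and 80.9 (-1.69 ± 0.38, limma adjusted p = 0.0029), and after trimmed mean scaling its difference of -0.90 was not called. Both were far higher in unperfused cells, Myf5 at 1261 and 2598 and Myod1 at 377 and 259 FPKM. Msc, a repressor of muscle differentiation, fell from 129.9 and 53.3 to 1.62 and 1.34 FPKM (-5.09 ± 0.42), while Six4, a homeobox factor, rose from 1.23 and 2.62 to 10.1 and 10.6 (2.00 ± 0.29). Myog, which starts terminal differentiation, was at 15.8 FPKM in PFA-perfused 1, 61.0 in PFA-perfused 2 and 76.9 and 67.2 in injury-activated cells. It was not called (1.18 ± 0.75, limma adjusted p = 0.18). PFA-perfused 2 lay close to the injury-activated level, and without that library the difference was 2.12 and called (limma adjusted p = 0.044), as it was after trimmed mean scaling (1.94).

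Genes known from quiescent satellite cells were mostly lower after injury. Of 35, 5 rose and 25 fell (median -3.21; after trimmed mean scaling 7 and 21; 5 and 17 of the 27 in all 4 libraries). This list shares genes with others, so their counts are not separate results. Among them are Notch3, Hes1, Hey1 and Heyl (Notch), Gas1 (brakes), Spry1 (growth factor signalling), Foxo1 (autophagy and FoxO) and Meg3 (imprinted). The calcitonin receptor Calcr, which holds satellite cells in quiescence, fell from 95.7 and 44.7 FPKM to 0.682 and 0.548 (-5.36 ± 0.34). Spry1, which dampens receptor tyrosine kinase signals and is needed for the return to quiescence, fell from 101.6 and 74.0 to 1.07 and 1.11 FPKM (-5.39 ± 0.27). Tenm4, a teneurin of the cell surface, fell from 283 and 313 to 1.24 and 1.35 FPKM (-7.02 ± 0.29), and Chrdl2, a secreted BMP antagonist, from 173 and 185 to 0.261 and 0.125 (-7.24 ± 0.32). The groups were far apart in all of these, and unperfused cells lay between them.

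Surface molecules used to identify satellite cells did not fall together. Vcam1 is one of them and was also the positive marker of the sort, and the part of the sort in its level was not tested. Cd34 fell from 181 and 128 to 15.8 and 12.9 FPKM (-3.33 ± 0.27) and Cdh15, M-cadherin, from 198 and 146 to 36.8 and 39.7 (-2.13 ± 0.30). Vcam1 rose from 128 and 84.3 to 241 and 234 FPKM (1.18 ± 0.30, limma adjusted p = 0.0058), a call that did not hold without PFA-perfused 2 (0.88). Itga7, the laminin receptor subunit of muscle, rose from 68.8 and 76.1 to 146 and 144 FPKM (1.00 ± 0.25), and Ncam1 from 55.5 and 54.2 to 134 and 123 (1.21 ± 0.24). The 5 rises of the list, with Vcam1 among them, numbered 3 without PFA-perfused 2.

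The Notch pathway, in which receptors are cleaved after contact with ligands on a neighbouring cell and switch on Hes and Hey repressors, was read from receptors to targets. Of 27 members, 3 rose and 19 fell (median -1.40; after trimmed mean scaling 5 and 14; 3 and 14 of the 22 in all 4 libraries). Among the receptors, Notch3 fell from 433 and 386 FPKM to 4.30 and 3.93 (-6.32 ± 0.34, limma adjusted p = 7.3e-07) and Notch1 from 61.2 and 82.9 to 10.01 and 9.60 (-2.74 ± 0.34, limma adjusted p = 7.7e-05). Notch2 fell from 20.6 and 31.3 to 7.49 and 8.22 FPKM (-1.58 ± 0.36) and was not called after trimmed mean scaling (-0.82). The target Hes1 fell from 64.9 and 51.9 to 0.559 and 0.578 FPKM (-5.23 ± 0.21), Hey1 from 70.5 and 52.8 to 1.58 and 1.12 (-4.73 ± 0.25), and Heyl from 450.4 and 375 to 25.4 and 22.7 (-4.04 ± 0.26). Hes1 was as low in unperfused cells (0.341 and 0.666 FPKM) as in injury-activated cells, whereas Heyl was at 74.8 and 56.1 in unperfused cells. Rbpj, the DNA-binding partner of cleaved Notch, rose from 18.6 and 13.7 to 50.6 and 53.5 FPKM (1.64 ± 0.24, limma adjusted p = 2.1e-04). Of the ligands, Dll1 was not called (11.99 and 12.3 against 6.80 and 6.51 FPKM) and Jag2 was not either (1.97 and 3.59 against 1.57 and 1.32; it was called without PFA-perfused 1, -0.91).

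**Figure D3:**
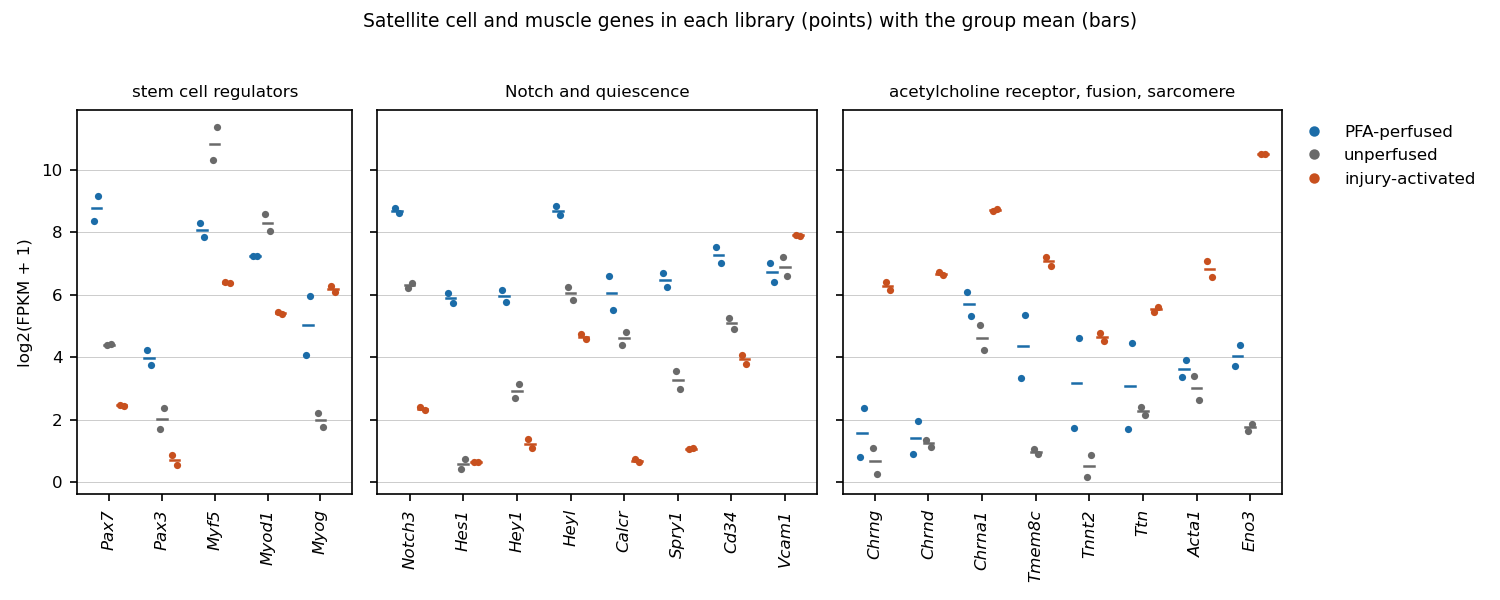
Level of stem cell regulators, Notch and quiescence genes, and genes of the acetylcholine receptor, fusion and the sarcomere as log2(FPKM + 1) in each library (points) with the mean of 2 libraries (bars). Pax7, Notch3 and Calcr step down from PFA-perfused over unperfused to injury-activated libraries, Myf5 and Myod1 are highest in the unperfused, Chrng, Chrnd, Acta1 and Eno3 are highest in the injury-activated, and the PFA-perfused libraries lie apart for Tnnt2, Ttn and Myog.

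Genes of muscle differentiation rose more often than they fell. Of 30 genes of sarcomere, fusion and the neuromuscular junction, 18 rose and 6 fell (median 1.75; after trimmed mean scaling 20 and 5; 9 and 6 of the 20 in all 4 libraries). The subunits of the fetal acetylcholine receptor rose: Chrng, the gamma subunit of immature muscle, from 0.731 and 4.21 FPKM to 83.5 and 70.0 (4.69 ± 0.52, limma adjusted p = 3.6e-05), Chrnd from 0.883 and 2.84 to 105 and 97.01 (5.24 ± 0.30), and Chrna1 from 66.2 and 38.9 to 409 and 426 (3.01 ± 0.33). Tmem8c, which encodes the fusion protein myomaker, was at 9.11 and 40.0 FPKM in PFA-perfused and 147 and 120.0 in injury-activated cells (2.71 ± 0.76, limma adjusted p = 0.0097), and was not called without PFA-perfused 1 (1.70). Skeletal actin, Acta1, rose from 9.34 and 13.9 to 133 and 93.9 FPKM (3.18 ± 0.42) and the fast troponin Tnnt3 from 10.4 and 2.59 to 60.2 and 58.6 (3.24 ± 0.49).

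Some sarcomere genes depended on which PFA-perfused library was read. Tnnt2, cardiac troponin T, which immature muscle also expresses, was at 2.32 FPKM in PFA-perfused 1, 23.5 in PFA-perfused 2 and 26.0 and 22.1 in injury-activated cells, and of the alternatives run it was called without PFA-perfused 2 alone (2.91). Cardiac actin, Actc1, was at 1.73 and 23.9 FPKM in PFA-perfused 1 and 2 against 4.35 and 2.97, with no call (-0.84 ± 0.86) except without PFA-perfused 1 (-2.43). Titin, Ttn, was at 2.23 and 20.7 FPKM against 42.8 and 48.1 (2.47 ± 0.68, limma adjusted p = 0.0091), with differences of 1.09 without PFA-perfused 1 and 3.84 without PFA-perfused 2, and it was not called when only the 4 libraries entered the fit. Mybpc1, a slow myosin-binding protein, fell from 20.7 and 31.5 to 2.28 and 1.66 FPKM (-3.17 ± 0.28). Of 10 members among 16 genes of mature fibres, 7 rose and 2 fell (7 and 1 after trimmed mean scaling; 5 and 2 of the 7 in all 4 libraries), and the summed level of the 16 was 253 and 185 FPKM in PFA-perfused and 1781 and 1744 in injury-activated cells. Of the injury-activated sums, Eno3 held 1443 and 1452 FPKM.

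Growth factor signalling was read through its receptors, ligands and feedback genes. Of 30, 7 rose and 17 fell (median -1.26; after trimmed mean scaling 12 and 15; 4 and 10 of the 18 in all 4 libraries), with 4 rises without injury-activated 2. The shares of 23.3% and 56.7% lie near the 26.1% and 47.3% of all tested genes, and 7 members had passed through the PFA-perfused libraries alone. The FGF receptors of satellite cells fell: Fgfr1 from 274 and 228 FPKM to 17.04 and 14.8 (-3.89 ± 0.30, limma adjusted p = 4.5e-06) and Fgfr4 from 324 and 296 to 19.4 and 19.6 (-3.92 ± 0.21). Met, the receptor of hepatocyte growth factor, rose from 35.1 and 36.4 to 167 and 145 FPKM (2.09 ± 0.22, limma adjusted p = 2.7e-05), and Egfr was not called (24.8 and 17.9 against 22.6 and 23.2; called at 0.87 after trimmed mean scaling). Igfbp4, which binds insulin-like growth factors, fell from 39.9 and 40.1 to 0.138 and 0.199 FPKM (-5.13 ± 0.22), and its relative Igfbp7 from 26.3 and 16.8 to 0.211 and 0.199 (-4.19 ± 0.34). Of 27 genes of the TGF-beta and BMP pathways, 5 rose and 19 fell (median -1.26; after trimmed mean scaling 7 and 14; 3 and 13 of the 19 in all 4 libraries). Ltbp4, a matrix protein that binds latent TGF-beta, fell from 1721 and 2137 to 4.73 and 3.62 FPKM (-8.54 ± 0.37, limma adjusted p = 3.5e-07), and Ltbp3 from 89.7 and 92.6 to 0.607 and 0.704 (-5.80 ± 0.18). The ligand Bmp4 fell from 133 and 93.1 to 2.27 and 1.06 FPKM (-5.44 ± 0.31). Of the Id genes, which block myogenic factors, Id1 fell from 28.7 and 38.9 to 6.02 and 6.72 FPKM (-2.23 ± 0.38) and Id2 rose from 105 and 98.6 to 216 and 230.0 (1.13 ± 0.24).

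Genes of the basement membrane, the sheet under which quiescent satellite cells lie, had a median below the -0.48 of all tested genes. Of 22 basement membrane genes, 5 rose and 13 fell (median -1.91; after trimmed mean scaling 8 and 13; 3 and 9 of the 15 in all 4 libraries), with fewer rises without injury-activated 2. The shares of 22.7% and 59.1% stand beside 26.1% and 47.3% of all tested genes. The collagen IV chain Col4a1 fell from 63.5 and 46.2 FPKM to 0.985 and 0.860 (-4.84 ± 0.23), and its partner Col4a2 from 24.7 and 18.2 to 0.289 and 0.235 (-4.14 ± 0.22). The laminin chains parted. Lama3 fell from 229.6 and 190.5 to 0.681 and 1.91 FPKM (-6.57 ± 0.29) and Lamb2 from 274 and 321 to 11.6 and 11.9 (-4.54 ± 0.21), while Lamb1, another beta chain, rose from 29.0 and 22.6 to 379 and 380.1 (3.84 ± 0.25, limma adjusted p = 1.7e-06).

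Of 31 interstitial matrix genes, 12 rose and 12 fell (median 0.14; after trimmed mean scaling 15 and 8; 4 and 10 of the 21 in all 4 libraries). Tnc, tenascin C, was at 0.198 and 1.04 FPKM in PFA-perfused and 127 and 173 in injury-activated cells (6.58 ± 0.48, limma adjusted p = 3.2e-06), and Vcan, versican, at 0.799 and 1.71 against 37.5 and 38.8 (4.15 ± 0.25). Fn1, fibronectin, rose from 4.75 and 2.72 to 24.8 and 24.6 FPKM (2.47 ± 0.26), and Thbs1, thrombospondin, from 4.08 and 14.7 to 249 and 228 (4.74 ± 0.43). Col5a3, a collagen V chain, fell from 71.8 and 68.0 to 1.74 and 1.24 FPKM (-4.84 ± 0.21). Unperfused cells held 131 and 41.4 FPKM of Tnc and 9.91 and 7.38 of Vcan. Fibro-adipogenic markers, of cells that make much of this matrix, summed to 1833 and 1178 FPKM in PFA-perfused and 158 and 127 FPKM in injury-activated cells, a difference carried by Dpt, Serping1 and Col3a1, while 7 of the 12 members rose. Tenocyte markers summed to 16.0 and 4.40 and 115 and 83.3 FPKM. The part of such cells in the matrix values was not tested.

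Of 23 matrix proteases and inhibitors, 10 rose and 6 fell (median 0.33; after trimmed mean scaling 16 and 6; 6 and 5 of the 17 in all 4 libraries). The gelatinase Mmp2 fell from 334 and 303 FPKM to 5.69 and 3.71 (-5.83 ± 0.23, limma adjusted p = 3.0e-07) and the membrane protease Mmp14, which activates it, from 29.1 and 20.7 to 1.01 and 1.15 (-3.62 ± 0.21). Plaur, the urokinase receptor, rose from 1.46 and 1.42 to 131 and 125 FPKM (5.72 ± 0.27, limma adjusted p = 4.3e-07) and was higher still in unperfused cells (906 and 616). Adam8 rose from 0.643 and 1.47 to 70.7 and 58.7 FPKM and the inhibitor Timp1 from 0.208 and 0.759 to 33.3 and 31.8, both above unperfused cells, which held 1.59 and 2.32 FPKM of Adam8 and 3.80 and 2.22 of Timp1.

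Immediate early genes, transcribed within minutes of a stimulus, were called in shares near those of all tested genes. Of 34 members, 10 rose and 15 fell (median -0.44; after trimmed mean scaling 15 and 11; 4 and 10 of the 23 in all 4 libraries). As deposited these are 29.4% and 44.1%, beside 26.1% and 47.3% of all tested genes, so nothing is read from the counts. Fos stood at 57.3 and 38.2 FPKM in PFA-perfused and 49.7 and 46.6 in injury-activated cells and was not called (0.04 ± 0.36, limma adjusted p = 0.93). Egr1 fell from 393 and 181 to 20.0 and 14.7 FPKM (-3.88 ± 0.36, limma adjusted p = 1.3e-05), Jun from 153 and 121 to 18.7 and 20.4 (-2.74 ± 0.41), and Junb from 36.6 and 40.0 to 1.90 and 1.67 (-3.82 ± 0.23). The mRNA decay factor Zfp36l1 fell from 839 and 589 to 6.90 and 6.90 FPKM (-6.48 ± 0.25). Atf3 and Fosl1 were low in PFA-perfused cells and rose, Atf3 from 1.24 and 0.523 to 4.11 and 5.01 FPKM (1.59 ± 0.29, limma adjusted p = 8.2e-04) and Fosl1 from 0.0560 and 0.0269 to 6.18 and 5.71 (2.74 ± 0.24). Unperfused cells, which were not fixed either, held 192 and 369 FPKM of Fos, 316 and 343 of Egr1 and 58.2 and 57.4 of Atf3.

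Of 29 genes of inflammation and the NF-kB pathway, 13 rose and 10 fell (median 0.50; after trimmed mean scaling 16 and 5; 4 and 7 of the 16 in all 4 libraries), with 8 members that passed through the injury-activated libraries alone. The monocyte chemokine Ccl2 rose from 0.918 and 0.984 FPKM to 145 and 123 (6.11 ± 0.27) and Ccl7 from 0.760 and 1.63 to 45.3 and 41.5 (4.37 ± 0.24), while unperfused cells held 110.2 and 119 FPKM of Ccl2 and 48.9 and 41.5 of Ccl7. In both PFA-perfused libraries the neutrophil chemokine Cxcl2 was listed at 0, against 16.3 and 16.6 FPKM in injury-activated libraries, and Cxcl1 rose from 22.5 and 4.14 to 278 and 251 (4.60 ± 0.68). Csf1, the macrophage growth factor, rose from 1.60 and 1.31 to 77.2 and 53.8 FPKM, above unperfused cells (26.7 and 20.7). Cebpd, a factor of the acute phase response, fell from 104 and 68.9 to 0.0860 and 0.131 FPKM (-6.27 ± 0.26), and Nfkbia, the inhibitor of NF-kB, was not called (83.8 and 64.1 against 104 and 98.7; called at 1.25 after trimmed mean scaling). The summed level of 22 haematopoietic markers was 21.2 and 18.0 FPKM in PFA-perfused and 87.7 and 97.7 in injury-activated cells, and the part of blood cells in the chemokine values was not tested.

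Chaperone genes rose more often than they fell relative to PFA-perfused cells. Of 25 heat shock and chaperone genes, 16 rose and 6 fell (median 1.45; after trimmed mean scaling 18 and 3; 16 and 4 of the 23 in all 4 libraries). Unperfused cells were higher than PFA-perfused cells for 14 of the 25 and lower for 4 (median 1.41), beside 17.4% and 56.3% of all tested genes. Injury-activated cells were higher than unperfused cells for 8 and lower for 10 (median -0.13), beside 40.8% and 29.3%. Hspa1a, the inducible Hsp70, fell from 58.4 and 128 FPKM to 0.900 and 0.900 (-5.52 ± 0.52), and the small heat shock protein Hspb1 from 135 and 187 to 6.92 and 7.08 (-4.32 ± 0.36). Of other members known to be induced by heat, Dnajb1 stood at 21.0 and 16.1 FPKM against 27.6 and 30.3 and, of the alternatives run, was called only after trimmed mean scaling (1.38) and with the 4 libraries alone in the fit (0.63). Bag3 was not called at -0.63 ± 0.26, although it was with the 4 libraries alone, with the replicate block and once Rn45s and Malat1 were removed (-0.89). The mitochondrial chaperonin Hspd1 rose from 299 and 233 to 3586 and 3752 FPKM (3.79 ± 0.30, limma adjusted p = 4.7e-06), and Hspa5, the chaperone of the endoplasmic reticulum, from 203 and 134 to 1137 and 1167 (2.80 ± 0.47). All 8 genes of the cytosolic chaperonin CCT, which folds actin and tubulin, rose (median 2.33; 8 and 0), for example Tcp1 from 108 and 93.3 to 712 and 691 FPKM (2.79 ± 0.30), with 7 called after quantile normalization. Of 42 cytoskeleton genes, 27 rose and 3 fell (median 1.68; 34 and 3; 26 and 3 of the 41 in all 4 libraries), with 6 falls after quantile normalization.

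Among the cytoskeleton genes, beta-actin, Actb, rose from 711 and 445 FPKM to 5841 and 6794 (3.48 ± 0.42, limma adjusted p = 6.4e-05) and was higher again in unperfused cells (11065 and 13669). The tubulin Tubb3 rose from 0.612 and 0.171 to 131 and 98.3 FPKM (6.38 ± 0.28), and Tubb6 from 16.9 and 19.8 to 761 and 752 (5.29 ± 0.27). Vim, vimentin, rose from 285 and 419.6 to 2284 and 1939.7 FPKM (2.60 ± 0.35) and Anxa1, annexin A1, from 45.7 and 48.7 to 1235 and 1011 (4.54 ± 0.30). The smooth muscle protein Tagln fell from 115 and 46.3 to 5.72 and 5.98 FPKM (-3.44 ± 0.42).

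Machinery for making ribosomes rose relative to PFA-perfused cells, while ribosomal protein genes depended on scaling. Of 39 ribosome biogenesis genes, 29 rose and 4 fell (median 1.84; after trimmed mean scaling 34 and 3). Unperfused cells were higher than PFA-perfused cells for 22 of these genes and lower for 3 (35 and 2 after trimmed mean scaling). Injury-activated cells were higher than unperfused cells for 16 and lower for 6 (13 and 9). Of all tested genes, 17.4% and 56.3% were called so in the first of these comparisons, and 40.8% and 29.3% in the second. Npm1, nucleophosmin, rose from 558 and 584 FPKM to 6026 and 6199 (3.42 ± 0.43, limma adjusted p = 7.8e-05), and Rrn3, which recruits RNA polymerase I, from 14.9 and 10.1 to 211 and 218 (4.02 ± 0.26), while unperfused cells held 378 and 403. Of 43 translation factors, 26 rose and 8 fell (median 1.06; 31 and 3; 26 and 7 of the 42 in all 4 libraries), and of 20 aminoacyl-tRNA synthetases, 16 rose and 1 fell (median 1.65; 19 and 0). Eif4e, which binds the mRNA cap, rose from 57.5 and 38.2 to 231 and 235 FPKM (2.29 ± 0.26), and Iars, the isoleucine synthetase, from 8.66 and 10.7 to 139 and 143 (3.74 ± 0.32). Eif3f, an initiation factor subunit, fell from 245 and 255 to 11.8 and 9.83 FPKM (-4.41 ± 0.26).

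Of 77 cytosolic ribosomal protein genes, 6 rose and 5 fell on the values as deposited (median 0.08), whereas trimmed mean scaling gave 41 and 1, quantile normalization 6 and 22, and the fit with the 4 libraries alone 26 and 19. Leaving out a library gave 3 rises without injury-activated 2, and 1 to 3 falls in the 4 such fits. Their summed level was 71948 and 79232 FPKM in PFA-perfused and 73220.3 and 77979 FPKM in injury-activated libraries, and 27396 and 16136 FPKM in unperfused. No direction is therefore given for this list. Rps27 fell from 1783 and 1976 to 99.5 and 91.9 FPKM (-4.28 ± 0.34, limma adjusted p = 4.7e-06) under every scaling (-3.48 with trimmed mean and -4.88 with quantile scaling). Many processed pseudogenes share sequence with these genes, so reads may be split among copies.

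Mitochondrial ribosomal protein and proteasome genes rose more often than they fell. Of 66 mitochondrial ribosomal proteins, 35 rose and 8 fell (median 0.66; after trimmed mean scaling 55 and 4), with 20 rises without injury-activated 1, 20 without injury-activated 2 and 20 without PFA-perfused 2. Of 76 nuclear subunits of oxidative phosphorylation, 18 rose and 14 fell (median 0.19; 53 and 4), and fewer fell without injury-activated 1, injury-activated 2 or PFA-perfused 1. Quantile normalization gave 16 rises and 20 falls (median -0.23), so no direction is given for these subunits. Cycs, cytochrome c, rose from 139.5 and 130.0 FPKM to 1241 and 1340.5 (3.25 ± 0.33, limma adjusted p = 2.2e-05). Of 33 proteasome genes, 24 rose and 3 fell (median 1.14; 29 and 3), among them Psmd2, a subunit of the regulatory particle, from 131 and 112 to 743 and 745 FPKM (2.61 ± 0.30), while Psmd3 fell from 64.4 and 57.1 to 9.00 and 8.44 (-2.66 ± 0.21). Of 46 splicing factors, 17 rose and 17 fell (median -0.17; 24 and 8; 17 and 16 of the 45 in all 4 libraries). The SR protein Srsf6 fell from 264 and 219 to 26.5 and 26.1 FPKM (-3.15 ± 0.23), whereas Snrpd3, of the spliceosome core, rose from 54.1 and 35.0 to 437 and 463 (3.34 ± 0.38).

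**Figure D4:**
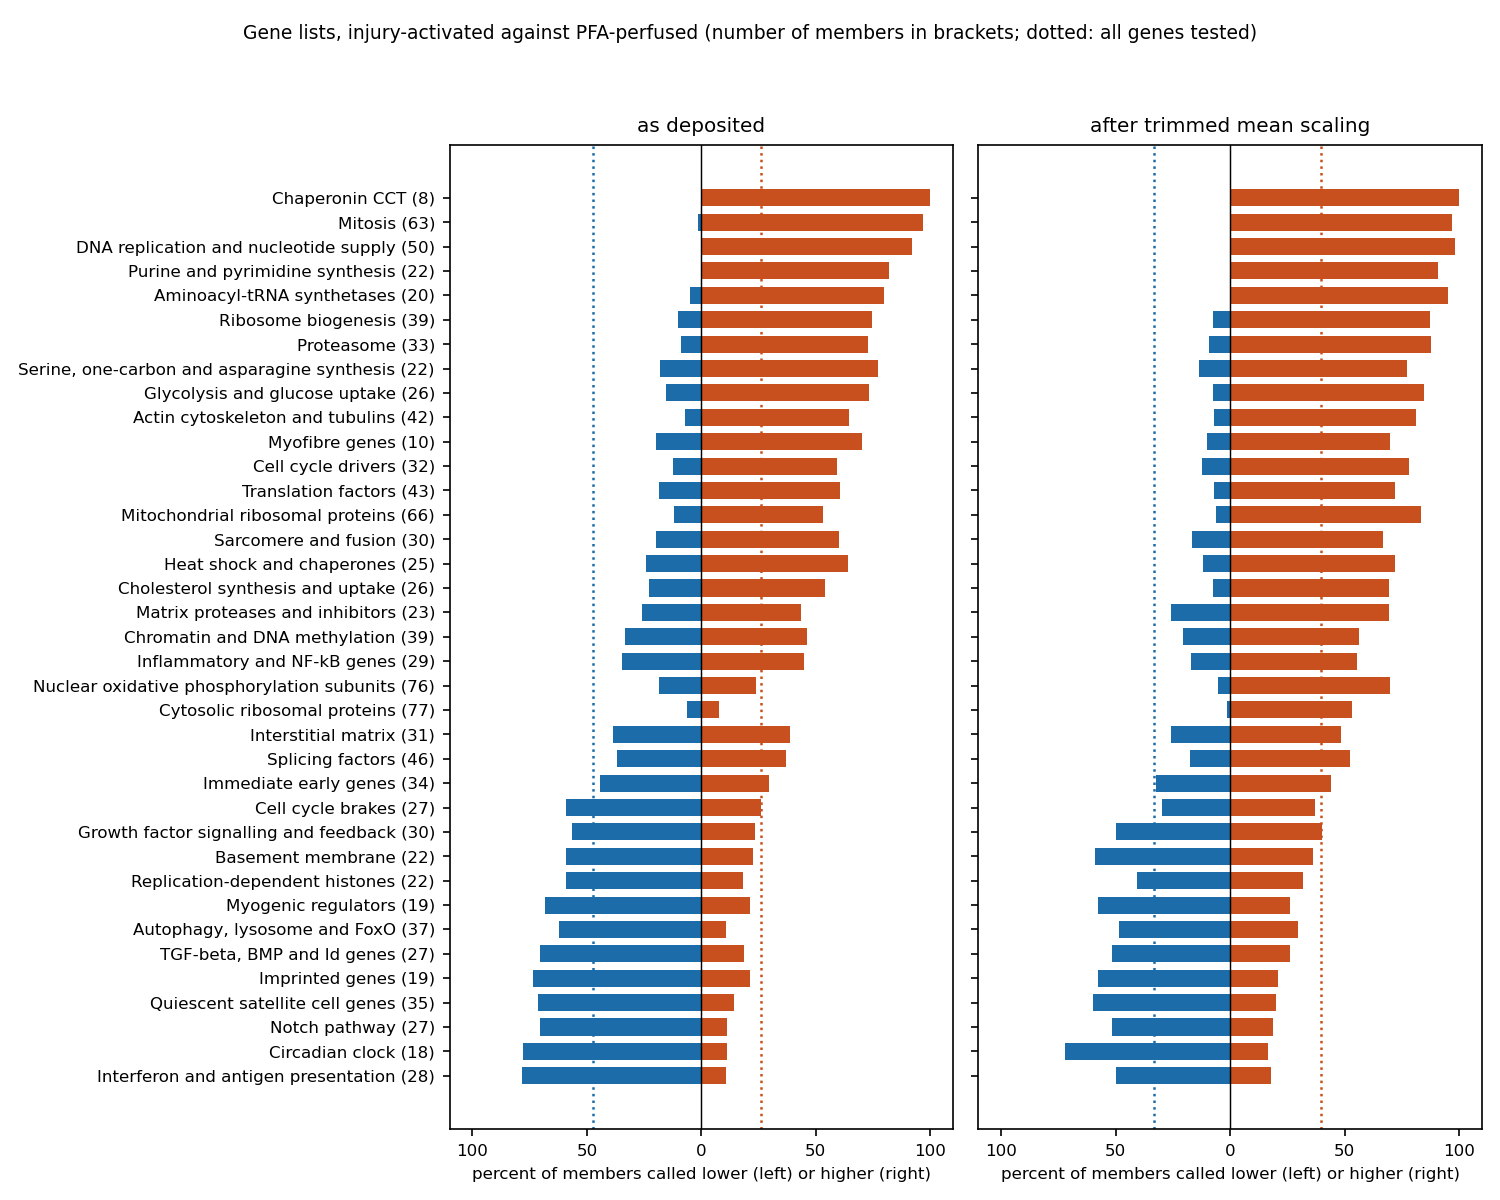
Percent of the members of each gene list called lower (blue, to the left) or higher (orange, to the right) in injury-activated than in PFA-perfused cells, on the values as deposited and after trimmed mean scaling, with the share over all tested genes dotted (47.3% and 26.1%; 33.1% and 39.7%). Chaperonin, mitosis and replication genes lie at the top in both panels, clock and Notch genes near the foot, and ribosomal protein and oxidative phosphorylation genes change most between the panels.

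Most genes of glycolysis and of serine and nucleotide synthesis rose. Of 26 genes of glycolysis and glucose uptake, 19 rose and 4 fell (median 1.85; after trimmed mean scaling 22 and 2; 18 and 1 of the 22 in all 4 libraries). Eno3, the muscle enolase, rose from 12.04 and 19.8 FPKM to 1443 and 1452, a ratio of means of 90.9 (6.46 ± 0.27, limma adjusted p = 3.2e-07), and Eno1, the enolase of most tissues, from 297 and 251 to 3607 and 3639.5 (3.72 ± 0.32). Hexokinase 2, Hk2, which traps glucose in the cell, rose from 0.318 and 0.484 to 26.6 and 30.4 FPKM (4.39 ± 0.20) and was higher in unperfused cells (154 and 173). Pkm, pyruvate kinase, rose from 288 and 242 to 2092 and 2077 FPKM (2.98 ± 0.30), and Ldha, which makes lactate, from 78.3 and 81.3 to 507 and 502 (2.64 ± 0.23). Pdk2, a kinase that keeps pyruvate out of the mitochondrion, fell from 20.9 and 16.7 to 1.23 and 0.951 FPKM (-3.24 ± 0.18). Gapdh, often used as a control gene, rose from 500.3 and 569.7 to 1778 and 1729 FPKM (1.71 ± 0.37; 2.51 and 1.15 after trimmed mean and quantile scaling).

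Of 22 genes of serine, one-carbon and asparagine synthesis, 17 rose and 4 fell (median 1.82; after trimmed mean scaling 17 and 3; 13 and 3 of the 17 in all 4 libraries; 2 falls after quantile normalization). Asparagine synthetase, Asns, rose from 0.370 and 0.740 FPKM to 163 and 162 (6.73 ± 0.37). Phgdh, an enzyme of serine synthesis, rose from 6.64 and 4.64 to 89.6 and 87.2 FPKM (3.77 ± 0.22). Its neighbour in that pathway, Psat1, rose from 15.7 and 16.9 to 202 and 196 (3.54 ± 0.26), and Mthfd2, of mitochondrial one-carbon metabolism, from 1.31 and 1.91 to 88.6 and 94.7 (5.16 ± 0.31). These genes are known targets of Atf4, whose own mRNA rose from 77.5 and 76.9 to 181 and 190.3 FPKM (1.26 ± 0.27), while Ddit3, another target, fell from 12.8 and 17.05 to 6.20 and 6.82 (-1.07 ± 0.25, limma adjusted p = 0.0037; not called after trimmed mean scaling, -0.35). Of 22 genes of purine and pyrimidine synthesis, 18 rose and none fell (median 1.96; 20 and 0), for example Gart from 21.96 and 18.4 to 151 and 156 FPKM (2.87 ± 0.23). Of 26 genes of cholesterol synthesis and uptake, 14 rose and 6 fell (median 0.77; 18 and 2), with 9 rises without injury-activated 1 and 9 without PFA-perfused 2.

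Genes of autophagy, the clock, imprinting and antigen presentation fell more often than they rose, as did all tested genes (47.3% lower and 26.1% higher). In that order, 62.2%, 77.8%, 73.7% and 78.6% of the list members fell, and 10.8%, 11.1%, 21.1% and 10.7% rose. Of 37 genes of autophagy, the lysosome and FoxO factors, 4 rose and 23 fell (median -0.98; after trimmed mean scaling 11 and 18; 4 and 20 of the 34 in all 4 libraries), with 2 rises without PFA-perfused 2. Foxo1, a factor of quiescence and starvation, fell from 59.3 and 58.0 FPKM to 1.97 and 1.82 (-4.37 ± 0.25, limma adjusted p = 8.8e-07), and the lysosomal membrane protein Lamp1 from 832 and 563 to 64.8 and 56.5 (-3.48 ± 0.26), while Bnip3, a mitophagy receptor, rose from 9.09 and 5.91 to 28.7 and 27.2 (1.79 ± 0.35). Of 18 clock genes, 2 rose and 14 fell (median -1.73; 3 and 13; 1 and 9 of the 12 in all 4 libraries). The output factor Dbp fell from 36.5 and 28.3 to 0.0536 and 0.0632 FPKM (-4.97 ± 0.27), Per1 from 93.2 and 34.9 to 0.343 and 0.405 (-5.40 ± 0.41), and Arntl, the core activator, from 18.8 and 13.7 to 4.37 and 3.62 (-1.77 ± 0.26).

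Of 19 imprinted genes, 4 rose and 14 fell (median -1.72; after trimmed mean scaling 4 and 11; 3 and 9 of the 13 in all 4 libraries). The non-coding RNA Meg3 fell from 278 and 158 FPKM to 0.0570 and 0.0410 (-7.65 ± 0.37), and Mirg, from the same imprinted cluster, from 164 and 140.3 to 0.353 and 0.219 (-6.90 ± 0.26). Gnas, the stimulatory G protein subunit, fell from 3524 and 2400.3 to 58.4 and 55.8 FPKM (-5.65 ± 0.34), whereas Grb10, an adaptor that dampens insulin signalling, rose from 134 and 163 to 607 and 666 (2.10 ± 0.42). H19 was not called (24.1 and 26.5 against 18.1 and 15.7). Of 28 genes of interferon response and antigen presentation, 3 rose and 22 fell (median -1.26; 5 and 14; 3 and 16 of the 21 in all 4 libraries). The class I chain H2-K1 fell from 207 and 198 to 29.6 and 25.1 FPKM (-2.85 ± 0.35, limma adjusted p = 6.8e-05), and Irf1, which drives such genes, rose from 10.49 and 13.1 to 64.6 and 53.3 (2.23 ± 0.32).

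The largest single rises, taken over genes whose higher group averaged at least 10 FPKM, were secreted and surface proteins beside the cell cycle and metabolic genes above. Spp1, osteopontin, stood at 0.241 and 1.19 FPKM in PFA-perfused and 228 and 243 in injury-activated cells (7.16 ± 0.27, limma adjusted p = 2.9e-07), with 0.0553 and 0.175 in unperfused cells. Msln, mesothelin, stood at 0.906 and 1.00 against 315 and 170.0 FPKM (6.89 ± 0.27) and was listed at 0 in both unperfused libraries. Il33, an alarmin cytokine, went from 0.0234 and 0.270 to 123 and 105 FPKM (6.65 ± 0.21), and Gja1, connexin 43, from 4.09 and 3.50 to 449 and 467 (6.58 ± 0.37). The entries Mir6236 and D17H6S56E-5 also rose (6.67 ± 0.61 and 6.32 ± 0.40). All of these rises had both injury-activated libraries above both PFA-perfused ones.

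The largest fall was Ryr3, an intracellular calcium release channel, from 1293 and 1479 FPKM to 0.719 and 0.349 (-9.83 ± 0.23). Kcnn3, a calcium-activated potassium channel, fell from 336 and 217 to 0.294 and 0.138 FPKM (-7.80 ± 0.34). Apoe, the lipid carrier apolipoprotein E, fell from 592 and 416 to 1.53 and 1.16 FPKM (-7.73 ± 0.27), and Pink1, the kinase that marks damaged mitochondria, from 327 and 189 to 0.728 and 0.658 (-7.21 ± 0.32). Edn3, an endothelin peptide, fell from 287 and 209 to 0.285 and 0.458 FPKM (-7.49 ± 0.27), and Nppc, C-type natriuretic peptide, from 257 and 124 to 0.0956 and 0.133 (-7.33 ± 0.38). Rsrp1, a splicing-related protein, fell from 756 and 557 to 2.22 and 1.87 FPKM (-7.74 ± 0.25). Chodl, chondrolectin, fell from 1049 and 928 to 6.28 and 4.70 FPKM (-7.26 ± 0.24). Each lay between both groups in the unperfused libraries, for example Ryr3 at 64.9 and 63.6 FPKM and Chodl at 142 and 127.

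Unperfused cells were not fixed and share their wild type label with the injury-activated cells, so 2 further comparisons were read beside the main one. The 3 comparisons share libraries, and their values are given side by side with no test between them. Of all tested genes, 40.8% were higher and 29.3% lower in injury-activated than in unperfused cells, and 17.4% were higher and 56.3% lower in unperfused than in PFA-perfused cells, with medians of 0.17 and -0.81. After trimmed mean scaling the shares were 36.2% and 36.8%, and 36% and 31.9%. Mitotic genes had a median of 3.79 against PFA-perfused and 4.25 against unperfused cells, and replication genes 2.61 and 3.72. Injury-activated cells were called higher than unperfused cells for 60 of the 63 mitotic genes. Immediate early genes had a median of -0.44 against PFA-perfused and -2.90 against unperfused cells, where 29 of 34 were lower, and unperfused cells were higher than PFA-perfused for 24. Quiescent satellite cell genes had medians of -3.21 and -2.0. Oxidative phosphorylation subunits stood at 0.19 against PFA-perfused cells and 2.54 against unperfused cells, and cytosolic ribosomal proteins at 0.08 and 2.21. All 76 oxidative phosphorylation subunits were called higher in injury-activated than in unperfused cells.

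**Figure D5:**
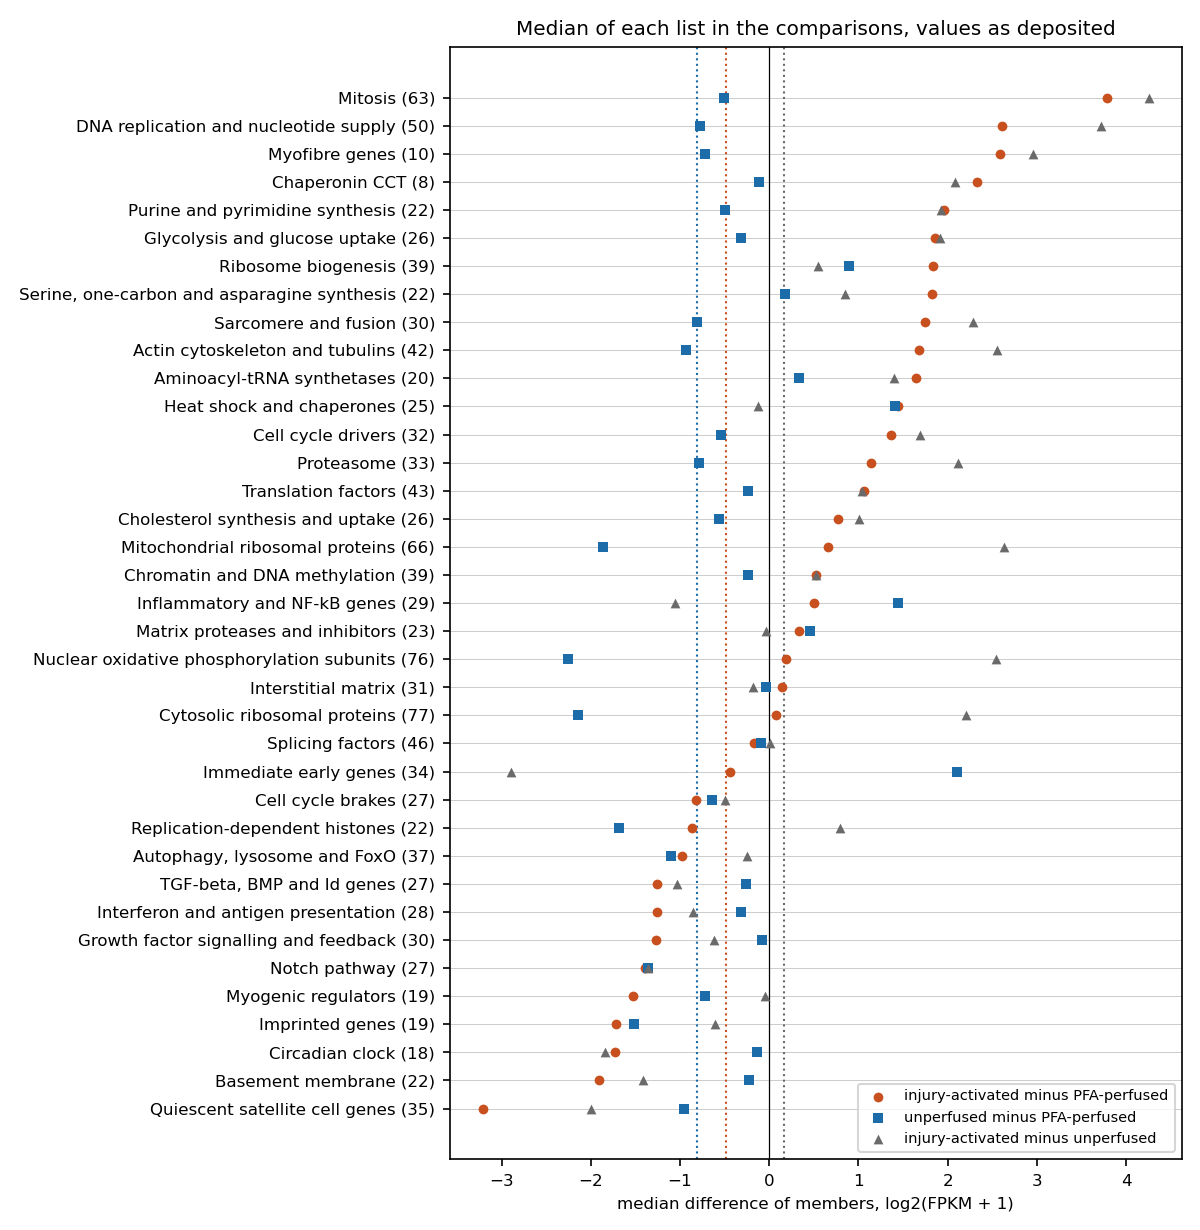
Median log2 difference of the members of each list in 3 comparisons (circles, injury-activated minus PFA-perfused; squares, unperfused minus PFA-perfused; triangles, injury-activated minus unperfused), on the values as deposited, with the medians over all tested genes dotted (-0.48, -0.81 and 0.17). Mitosis and replication lie above 2 in both comparisons of injury-activated cells, while ribosomal protein, oxidative phosphorylation and immediate early genes lie far apart between them.

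Markers of other cells of muscle were read as a measure of the sort. Of 8 endothelial markers that were members, 0 rose and 7 fell (0 and 4 of the 5 in all 4 libraries), and the summed level of the 16 listed was 117 and 84.3 FPKM in PFA-perfused and 12.5 and 12.3 in injury-activated cells. Of the PFA-perfused sums, Tek held 46.5 and 50.9 FPKM and Fabp4 36.8 and 15.0, while the defining Cdh5 was at 0.609 and 0.0832 against 0.196 and 0.106. Tek is also in the list of quiescent satellite cell genes above, so its fall is counted in both lists. Of 12 fibro-adipogenic markers, 7 rose and 4 fell (2 and 4 of the 7 in all 4 libraries, with 5 members that passed through the injury-activated libraries alone). Dpt, Serping1 and Col3a1 fell (Dpt from 633 and 318 to 5.81 and 5.61 FPKM), whereas Pdgfra, the defining receptor, rose from 0.187 and 0.126 to 6.18 and 5.73 FPKM (2.59 ± 0.26) and Dcn from 5.43 and 2.71 to 30.7 and 25.8, and the sums were 1833 and 1178 FPKM in PFA-perfused and 158 and 127 FPKM in injury-activated cells. Of 13 haematopoietic markers, 10 rose and 1 fell (6 rises without injury-activated 2; 3 and 0 of the 4 in all 4 libraries), with sums of 21.2 and 18.0 FPKM against 87.7 and 97.7. Through the injury-activated libraries alone 6 of these markers had passed, so little can be read from the count. Lyz2, a lysozyme of macrophages and neutrophils, led them, from 1.86 and 1.88 to 42.9 and 44.0 FPKM (3.95 ± 0.18, limma adjusted p = 3.7e-07), and the macrophage gene Adgre1 stood at 0 and 0.0564 against 1.67 and 2.00. Spp1, which macrophages also express, rose with them, and their part in its level was not tested.

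Of 8 tenocyte markers, 6 rose and 2 fell (1 fell without either PFA-perfused library or without injury-activated 2, and 0 after quantile normalization). No tenocyte marker reached 1 FPKM in all 4 libraries, so nothing is read from these counts. Thbs4 was at 3.84 FPKM in PFA-perfused 1, 0.185 in PFA-perfused 2 and 64.1 and 38.7 in injury-activated cells (4.41 ± 0.63, limma adjusted p = 1.8e-04), and Fmod, fibromodulin, at 2.88 and 0.280 against 21.5 and 17.8. The sums of the list were 16.0 and 4.40 FPKM against 115 and 83.3. Of 10 mural markers, 1 rose and 8 fell (1 and 7 after trimmed mean scaling; 1 and 3 of the 5 in all 4 libraries; no rise without injury-activated 2). The list holds Notch3, Des and Acta2, which satellite cells and myoblasts also express. Its sums were 786 and 699.8 FPKM in PFA-perfused and 101 and 82.3 in injury-activated cells. Of 5 glial markers, 1 rose and 3 fell (1 was at 1 FPKM or more in all 4 libraries), with sums of 34.8 and 28.1 FPKM against 10.3 and 10.6, and the rise, of Erbb3, was not called without either injury-activated library. Haemoglobin differed between the PFA-perfused libraries, with Hba-a2 at 37.9 FPKM in PFA-perfused 1 and 0.172 in PFA-perfused 2 against 3.11 and 3.47 in injury-activated cells, and its difference changed sign between fits without PFA-perfused 1 (1.87) and without PFA-perfused 2 (-3.18).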

How the data were processed

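RNA-seq was read from a deposited table of normalized values for 8 libraries of sorted mouse muscle stem cells, 2 in each of 4 groups (injury-activated, unperfused, and perfused with PFA or PBS). Per the submitters' processing notes, the tools included STAR 2.5.3a, StringTie 1.3.3 and R 3.4.1, with genome build mm9. The values carry no unit in the table. They were read as FPKM, per gene length and library size, because StringTie gives that unit, and the deposited FPKM show no steps of whole reads, so no counts could be recovered. The annotation is not given in the sources used here. Per the labels' protocols, RNA of fixed cells was taken with miRNeasy FFPE and RNA of the other cells with NucleoSpin RNA XS, collagenase II was doubled for fixed cells, and all libraries were made with SMART-Seq v4, Covaris shearing and Ovation Ultralow.

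log2(FPKM + 1) was fitted with limma 3.58.1 in R 4.3.3, with 1 mean per group over all 8 libraries, moderated variances with a trend and Benjamini-Hochberg adjustment over the 12515 genes with at least 1 FPKM in at least 2 libraries. A gene was called at an adjusted p under 0.05. Fold changes on this scale understate the change of low genes. Alternatives were a pseudocount of 0.1, filters of 5 FPKM and of none, the 4 libraries alone, the replicate number as a block, trimmed mean scaling (trims of 0.3 and 0.05), quantile normalization, removal of Rn45s and Malat1, and each library left out. Promoter sequences came from RefSeq (GRCm38.p6) and were matched by symbol, without use of the files' coordinates.

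The members, the 44 gene lists and the tests were chosen with earlier results of these data known. Genes were named by a rule: the 12 largest rises and falls among called members whose higher group averaged at least 10 FPKM, a set of anchors (such as Pax7, Ccnb1 and Fos), in each list up to 6 called members of largest change and up to 2 of highest FPKM among those not called, and any member of the lists of cell type markers, myogenic regulators, cell cycle drivers, cell cycle brakes and Notch genes. Chosen after their values were seen were Arntl, Atf4, Bnip3, Cd34, Cdc20, Cdh15, Cdk1, Chrna1, Ddit3, Ezh1, Ezh2, Fn1, Fosl1, Grb10, Id1, Id2, Itga7, Ldha, Mcm6, Met, Mmp14, Ncam1, Pcna, Pttg1, Tagln, Tk1, Tmem8c, Ttn and Vim. Some genes that the rule names are not reported here.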

Additional observations from a re-analysis of the deposited data

How the results depend on the processing

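The number of genes called between injury-activated and PFA-perfused cells stayed within 1.5 times of 3272 rises and 5925 falls under every alternative run but 1: trimmed mean scaling gave 4966 rises. Other values ran from 2352 rises (a library left out) to 4385 (quantile normalization) and from 4144 falls (trimmed mean scaling) to 6783 (no filter on low values). Leaving out 1 library of the 4 gave 2352 to 3034 rises and 4864 to 5180 falls. Between unperfused and PFA-perfused cells, trimmed mean scaling turned 2173 rises into 4505 and 7043 falls into 3993, and quantile normalization gave 3906 and 4542. The cause of these shifts was not tested. Beyond 1 on the log2 scale, 2391 rises and 4569 falls were called. The median of all tested genes was -0.48 as deposited, 0.11 with trimmed mean scaling, 0.01 with quantile normalization and -0.68 once Rn45s and Malat1 were removed. Averaging both injury-activated libraries to 1, an alternative chosen after seeing that they lie close to each other, gave 2618 rises and 5109 falls.

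Of 88 list counts, 26 moved by over 1.5 times with trimmed mean scaling, 14 with quantile normalization, 13 when injury-activated 2 was left out, 11 with a filter of 5 FPKM, and 8 or fewer under each other alternative run. Without PFA-perfused 1, Hba-a2 stood at 1.87, the reverse of its sign in the full fit and without PFA-perfused 2 (-3.18). As a check of pairing, deviations of libraries with the same replicate number correlated at -0.05 to 0.14 between groups (0.02 for the groups compared here), so the numbers were not taken to pair libraries. With the replicate block, 3341 rises and 5995 falls were called, and no list count moved by over 1.5 times. No counts were used, so depth sets no stated limit on single values.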
